A study of Mus musculus with 4 samples.

Results

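MHC class I presentation was followed through 10 genes that build, load and regulate class I molecules, measured by RNA-seq in sorted medullary thymic epithelial cells (mTECs) of the mouse. The genes are B2m, H2-K1, H2-D1, Tap1, Tap2, Tapbp, Psmb8, Psmb9, Psmb10 and Nlrc5. They were chosen by symbol, and 10 of 10 were found among the 23337 genes of the count table. The study made 4 libraries from mTECs (CD45- EpCAM+ UEA-1+ Ly51-) of 4-week-old C57BL/6 mice, 2 from wild-type (WT) mice and 2 from Sirt6 cKO mice, whose genotype the labels give as Sirt6-/-. In Sirt6 cKO mice, floxed Sirt6 alleles (Sirt6 loxp/loxp) were combined with Foxn1-Cre, which is driven by regulatory sequence of Foxn1 and acts in cortical as well as medullary epithelium. The WT mice were littermates or age-matched animals without Foxn1-Cre. How many mice went into a library was not stated in the sources used here, so p-values measure the spread between these libraries.

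Class I molecules show short peptides from inside the cell to CD8+ T cells. H2-K1 and H2-D1 encode classical heavy chains, which are held at the surface by the light chain β2-microglobulin (B2m). Peptides are cut in the cytosol by the proteasome, whose catalytic subunits Psmb5, Psmb6 and Psmb7 can be replaced by Psmb8, Psmb9 and Psmb10 to form the immunoproteasome. The peptides are then pumped into the endoplasmic reticulum by the transporter Tap1-Tap2 and handed to the heavy chain with the help of tapasin (Tapbp). Nlrc5 is the transactivator of class I genes and works through factors bound to X and Y boxes near the start of the gene. In the thymic medulla, class I molecules on mTECs present self peptides, including those of tissue-restricted genes, to developing CD8+ thymocytes.

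The total count was between 61102704 and 65907745 per library, and 18547 genes passed the filter on low counts. The count of the targeted gene was not lower under its label: Sirt6 was counted 622 and 755 times in WT, and 882 and 835 times where the label is Sirt6 cKO, with a log2 fold change of 0.37 (SE 0.32) and an adjusted p = 0.80 (edgeR quasi-likelihood test, Benjamini-Hochberg adjustment). Reads from undeleted exons of Sirt6 would still be counted, so this value does not check the deletion itself. The study reports that Sirt6 was inactivated. It used a western blot of cultured thymic epithelial cells and quantitative PCR of Sirt6 in sorted medullary and cortical epithelial cells. Each of the 12 mTEC markers had counts in all libraries, and their summed level was 6334 and 7051 in WT and 7264 and 8678 in Sirt6 cKO libraries, in CPM, the count scaled to library size with TMM factors. Epcam, Aire, Cd80 and Spib among them were higher at an unadjusted p under 0.05, but the mTEC markers did not all move together. Krt8 (1858 and 2585 against 1698 and 1831 CPM) and Cldn3 (14.2 and 18.4 against 13.6 and 12.6 CPM) were lower in both Sirt6 cKO libraries without being called. Cd40, Tnfrsf11a and Cldn4 were higher in both without being called. For Fezf2 the groups overlapped (672 and 690 against 386 and 803 CPM). Markers of other cells were present too, and no marker found was at 0 in all libraries. The summed level of 13 macrophage and dendritic cell markers was 5580 and 3264 CPM in WT and 2150 and 2261 CPM in Sirt6 cKO libraries, and most of it was Lyz2, at 4647 and 2815 CPM against 1778 and 1906 CPM. Of that list Lyz2, C1qa, C1qb and Emr1 were lower at an unadjusted p under 0.05, and no other marker of the same list was called. The macrophage markers of the list were not all lower. Csf1r was lower in both Sirt6 cKO libraries (119 and 68.5 against 59 and 68.3 CPM). The groups overlapped for Mertk (8.25 and 2.55 against 4.82 and 4.23 CPM) and Cx3cr1 (19.4 and 1.43 against 6.46 and 12 CPM). Itgam was highest in Sirt6 cKO 1 (8.62 and 12.9 against 24.9 and 6.94 CPM). The dendritic cell markers did not move together either. Xcr1 was lower in both Sirt6 cKO libraries (9.64 and 8.11 against 3.53 and 7.64 CPM). The groups overlapped for Siglech (57.5 and 69.9 against 80 and 65.9 CPM) and Clec9a (1.56 and 4.67 against 4.61 and 2.54 CPM). They also overlapped for Flt3 (18.9 and 7.32 against 10.9 and 9.49 CPM) and Itgax (12.1 and 7.53 against 10.7 and 6.41 CPM). The summed level of 13 thymocyte markers was 1901 and 1347 CPM against 1759 and 1085 CPM. Those cells carry class I molecules as well, and their part in the values given here was not tested.

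Of the 10 genes, 7 are neighbours in the MHC. H2-K1 (33996017 to 34000347), Tapbp (33915899 to 33929292), Psmb9 (34181987 to 34187764), Tap1 (34187553 to 34197225), Psmb8 (34197721 to 34201454), Tap2 (34203527 to 34216321) and H2-D1 (35262730 to 35267499) all lie on chromosome 17 (GRCm38, GENCODE gene models). Psmb10 (105935735 to 105938444) and Nlrc5 (94434356 to 94527272) lie on chromosome 8, and B2m (122147686 to 122153083) on chromosome 2. Psmb9 and Tap1 run in opposite directions and overlap by 212 exonic bases, which is 3.87% of the exonic bases of Tap1 and 5.79% of those of Psmb9. Because the sources do not state whether counting used strand, reads from that stretch cannot be given to 1 of the 2 genes.

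Promoter windows of 300 bases, from 250 before to 50 after a gene's start, were taken from RefSeq (GRCm38.p6), where 8 of the 10 genes had an entry. Those of Tap2 and Nlrc5 are not shown. The windows of B2m, H2-K1, H2-D1 and Tap1 are printed because they carry the short elements through which class I genes are known to be controlled. Capitals mark matches on either strand to 4 motifs, namely the interferon regulatory factor element GAAANNGAA, the kappa B element GGGNNNTCC, the X2 box core TGACG and the Y box core ATTGG. The strand is that of the gene.
B2m, chr2:122147437-122147736, plus strand: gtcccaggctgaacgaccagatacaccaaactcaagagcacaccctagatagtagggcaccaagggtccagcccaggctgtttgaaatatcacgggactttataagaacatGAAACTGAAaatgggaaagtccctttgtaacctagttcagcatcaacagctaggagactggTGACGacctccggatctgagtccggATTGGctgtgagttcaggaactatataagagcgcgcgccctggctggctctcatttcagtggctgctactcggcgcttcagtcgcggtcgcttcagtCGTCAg
H2-K1, chr17:34000298-34000597, minus strand: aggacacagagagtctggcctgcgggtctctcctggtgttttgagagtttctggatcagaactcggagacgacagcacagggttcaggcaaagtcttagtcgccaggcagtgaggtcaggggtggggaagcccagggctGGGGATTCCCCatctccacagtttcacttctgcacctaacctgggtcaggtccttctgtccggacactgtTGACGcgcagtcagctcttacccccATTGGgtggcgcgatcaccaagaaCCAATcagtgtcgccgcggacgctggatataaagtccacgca
H2-D1, chr17:35262844-35263143, plus strand: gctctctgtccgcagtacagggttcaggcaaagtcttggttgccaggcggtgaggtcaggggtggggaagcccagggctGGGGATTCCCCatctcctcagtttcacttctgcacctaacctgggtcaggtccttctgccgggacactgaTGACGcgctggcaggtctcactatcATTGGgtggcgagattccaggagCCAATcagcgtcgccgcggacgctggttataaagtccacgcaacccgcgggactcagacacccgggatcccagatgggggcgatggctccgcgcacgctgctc
Tap1, chr17:34187306-34187605, plus strand: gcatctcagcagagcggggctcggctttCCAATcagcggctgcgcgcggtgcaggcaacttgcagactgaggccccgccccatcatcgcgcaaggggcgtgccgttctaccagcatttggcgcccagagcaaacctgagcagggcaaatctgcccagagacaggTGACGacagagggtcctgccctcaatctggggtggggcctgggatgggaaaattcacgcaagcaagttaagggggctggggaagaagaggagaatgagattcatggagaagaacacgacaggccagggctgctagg

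With the start counted as position 0, the B2m window held an interferon regulatory factor element at -139, an X2 core at -78 with a further match at 44, and a Y core at -53. In the H2-K1 window printed, the kappa B matches at -111 and -109 overlap in 1 palindromic stretch, and were followed by an X2 core at -41 and Y cores at -16 and 8. RefSeq holds another start for H2-K1, whose window is not printed. Counted from it, the same elements lie at -125 and -123, at -55, and at -30 and -6, so both Y cores precede that start. The H2-D1 window had the same order, with kappa B matches at -171 and -169, an X2 core at -101 and Y cores at -76 and -53. The windows of H2-K1 and H2-D1 were 90.4% identical over 228 aligned columns. Both also held the stretch agtttcacttct between the kappa B matches and the X2 core. The letters GAAANNGAA do not match it on either strand, so it is not marked. Whether H2-K1 and H2-D1 carry an interferon regulatory factor element of another spelling was not tested. The Tap1 window shares 275 bases with that of Psmb9, whose start lies 226 bases away on the other strand, so its X2 core belongs to both windows. The window of Tapbp held Y cores alone, and those of Psmb8 and Psmb10 held none of the 4 motifs. Among 32851 mouse promoter windows of the same length, GAAANNGAA was found in 8.56%, GGGNNNTCC in 17.8%, TGACG in 20.8% and ATTGG in 37.4%, so a match is a description of the letters and not a measured binding site.

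Class I transcripts were among the most abundant in these cells. In TPM, which scale for transcript length and depth, B2m averaged 11686 over the 4 libraries and ranked 4 of all genes. H2-K1 followed with 5260 TPM (rank 9) and H2-D1 with 4373 TPM (rank 12). The loading genes came next, Tapbp at 1249 TPM, Tap2 at 349 TPM and Tap1 at 230 TPM. The immunoproteasome subunits were lower and unequal, Psmb9 at 217 TPM, Psmb10 at 162 TPM and Psmb8 at 57.9 TPM, and the transactivator Nlrc5 was lowest at 25.2 TPM. In this order, 2 pairs of neighbours had overlapping ranges over the 4 libraries, H2-K1 with H2-D1 and Tap1 with Psmb9, whereas all other neighbours were apart in each library. Within a gene, the highest library exceeded the lowest by between 1.12 times for Psmb8 and 1.67 times for Nlrc5. In sum, the 10 genes made up 2.19% and 2.57% of all TPM in the WT libraries and 2.32% and 2.36% in the Sirt6 cKO libraries, and those ranges overlap.

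**Figure D1:**
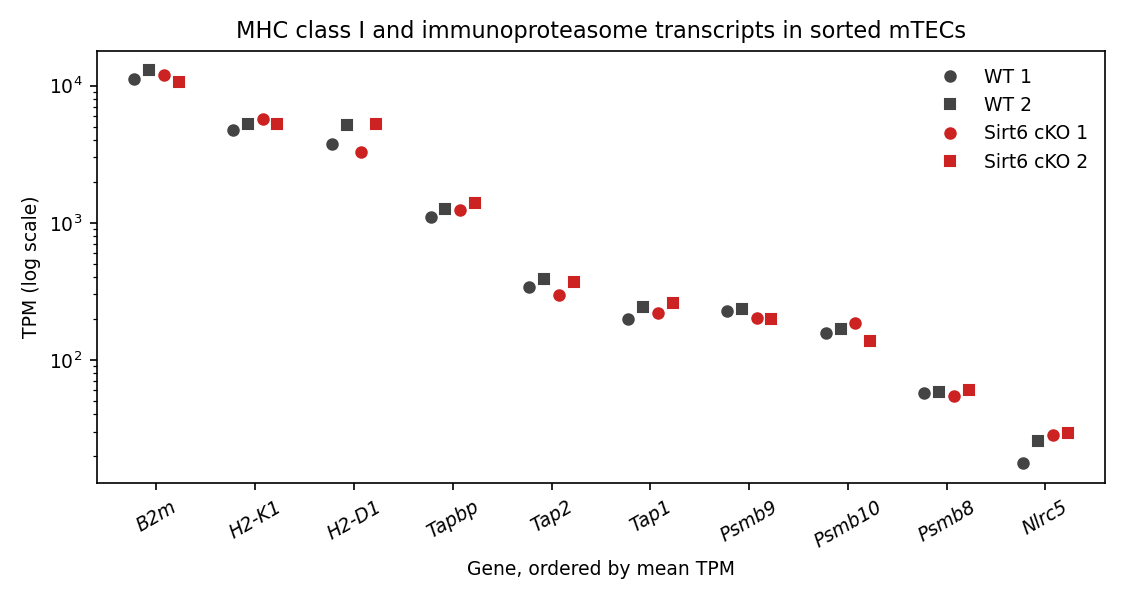
Level of each of the 10 genes in each library, as TPM on a log scale, with genes ordered by their mean. Circles and squares are replicates 1 and 2, and WT is grey and Sirt6 cKO red. Means run from 11686 TPM for B2m to 25.2 TPM for Nlrc5, and the points of H2-K1 with H2-D1 and of Tap1 with Psmb9 overlap.

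The question put to these libraries was whether mTECs of Sirt6 cKO mice carry a different amount of these transcripts. No member passed the test, with 0 of 10 at an adjusted p under 0.05 and 0 of 10 at an unadjusted p under 0.05 (edgeR quasi-likelihood test). Of all genes tested, 0.00539% passed after adjustment, while 5.27% were higher and 3.32% lower at the unadjusted threshold. DESeq2 called 0 of the 10 where it called 10.2% of all genes at that threshold, and limma on log2(TPM + 1) called 0 of the 10 where it called 9.32%. By sign 5 genes were higher and 5 lower, with a median log2 fold change of 0.00, as over all genes (0.00). The fold change was within 1.41-fold in both directions for 10 of 10 members, against 59.4% of all genes tested and 78.2% of the 6049 genes that reached the mean CPM of the lowest member. That bound, 0.5 on the log2 scale, lies just above the largest member estimate (0.44, Nlrc5). The 6049 genes share only the floor of 32.3 CPM and not the higher levels of most members. These shares therefore cannot show that the members were steadier than other genes. The groups did not overlap for 4 of 10 members in CPM, which is near the share of 41.9% over all genes tested. In sorted populations, fewer cells of a type and less RNA per cell cannot be told apart.

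**Figure D2:**
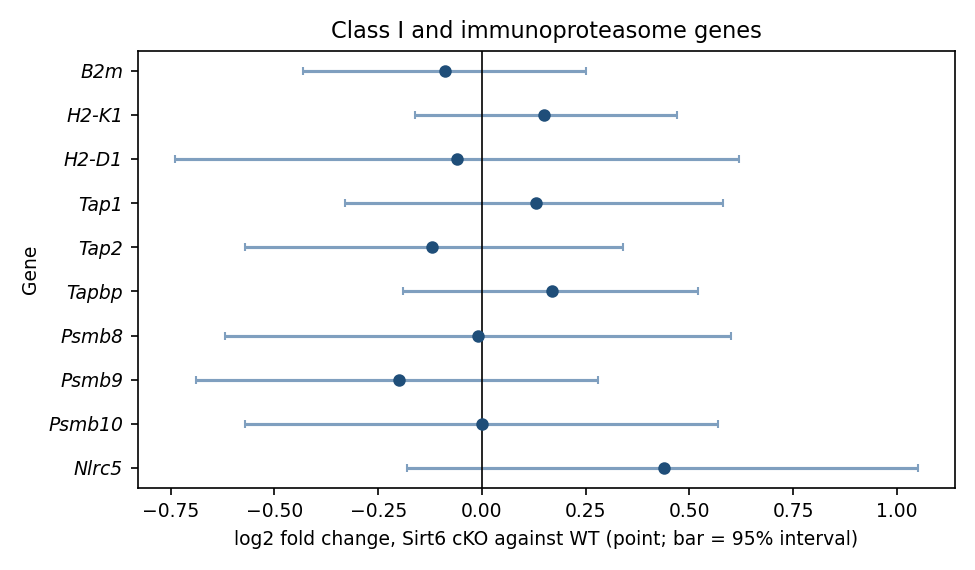
Log2 fold change of Sirt6 cKO against WT for each of the 10 genes, with points for the edgeR estimate and bars for its 95% interval. All 10 intervals cross 0, and that of Nlrc5, at 0.44, reaches furthest to the right.

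The light chain B2m was measured at 4458 and 4978 CPM in WT and at 4700 and 4149 CPM in Sirt6 cKO libraries. The highest value was a WT and the lowest a Sirt6 cKO library, with the other values between them, so that the groups overlap, and the log2 fold change was -0.09 (95% interval -0.43 to 0.25, SE 0.13, edgeR adjusted p = 0.90). The heavy chain H2-K1 had 3629 and 3856 CPM in WT and 4352 and 3958 CPM in Sirt6 cKO libraries. Both Sirt6 cKO values were above both WT values, but the fold change of 1.11 (95% interval 0.893 to 1.38, edgeR adjusted p = 0.79) did not pass the test.

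H2-D1 varied more than its partner H2-K1, and it did so inside the groups. It had 3013 and 4039 CPM in the WT libraries and 2600 and 4177 CPM in the Sirt6 cKO libraries. The highest and the lowest library were both Sirt6 cKO, which differed by 0.68 on the log2 scale, and the log2 fold change between groups was -0.06 (SE 0.27, edgeR adjusted p = 0.97). Without Sirt6 cKO 2 it was -0.46, and it turned to 0.25 without Sirt6 cKO 1 and to 0.17 without WT 2. Classical heavy chains are alike in sequence. Of the stretches of 50 bases in the longest transcript of H2-D1, 14.3% occurred in another gene, and 8.79% of those of H2-K1, and how the counting divided such reads was not given in the sources used here. Within a library, the ratio of H2-K1 to H2-D1 in TPM was 1.27 and 1.01 in WT and 1.77 and 0.999 in Sirt6 cKO libraries (exact two-sided permutation test, p = 1).

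Neither subunit of the transporter passed the test. Tap1 had 269 and 319 CPM in WT and 295 and 346 CPM in Sirt6 cKO libraries, with overlapping groups and a log2 fold change of 0.13 (95% interval -0.33 to 0.58, edgeR adjusted p = 0.90). Tap2 had 392 and 433 CPM in WT and 338 and 423 CPM in Sirt6 cKO libraries, and its log2 fold change was -0.12 (95% interval -0.57 to 0.34, edgeR adjusted p = 0.91). Since both products form 1 transporter, their ratio in TPM was also compared, after the values had been seen. It was 0.582 and 0.626 in WT and 0.742 and 0.694 in Sirt6 cKO libraries, which do not overlap. The ratio was 1.19 times that of WT, with p = 0.33 in the exact permutation test, the smallest p that 2 libraries against 2 allow, and 0.777 after adjustment over the 7 ratios compared.

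Tapasin was higher by sign alone. Tapbp had 1406 and 1544 CPM in WT and 1569 and 1740 CPM in Sirt6 cKO libraries, so both Sirt6 cKO values lie above the higher WT value. The fold change of 1.12 (95% interval 0.879 to 1.43, edgeR adjusted p = 0.80) did not pass the test. An antisense gene, Gm19412, covers 24.9% of the exonic bases of Tapbp, and reads of the 2 genes cannot be told apart without strand. The same limit holds for 14.7% of the exonic bases of Psmb8 (Gm20496) and for 14.1% and 4.36% of those of Tap2 (Gm15821 and Gm20496). It also holds for 11.8% of those of Psmb7 (Nek6), and so for the ratios that use these genes.

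None of the 3 immunoproteasome subunits passed the test. Psmb8 was the steadiest of the 10 genes, with 32.6 and 32.2 CPM in WT and 30.5 and 33.8 CPM in Sirt6 cKO libraries. Its log2 fold change was -0.01 (95% interval -0.62 to 0.60, edgeR adjusted p = 0.99). Psmb9 had 84.7 and 85.7 CPM in WT and 75.1 and 73.0 CPM in Sirt6 cKO libraries, so both Sirt6 cKO values were lower than both WT values. The replicates of Psmb9 were very close, and the fold change of 0.869 (95% interval 0.621 to 1.22) had an edgeR adjusted p = 0.82. Psmb10 had 92.6 and 95.2 CPM in WT and 108 and 79.9 CPM in Sirt6 cKO libraries. Both of the latter lie outside the narrow WT range, one above and one below, and the log2 fold change was 0.00 (95% interval -0.57 to 0.57, edgeR adjusted p = 1.0). With an estimate so near 0 its sign was not stable, being kept in 3 of 12 alternative settings, and it was -0.23 when Sirt6 cKO 1 was left out and 0.19 when Sirt6 cKO 2 was.

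Nlrc5 had the largest estimate of the 10. It was measured at 56.3 and 79.2 CPM in WT and at 90.3 and 93.0 CPM in Sirt6 cKO libraries, and the groups do not overlap. The fold change was 1.35 (95% interval 0.884 to 2.07), with an adjusted p = 0.68 in the edgeR quasi-likelihood test, and 0.662 by DESeq2. WT 1 was the lowest library, and the log2 fold change of 0.44 became 0.19 without it and 0.70 without WT 2, where its unadjusted p came nearest to the threshold among the settings tried. For the other 9 genes, the 95% interval excluded a 2-fold difference in either direction, and for Nlrc5 it excluded a 2-fold decrease but not a 2-fold increase.

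The exchange of catalytic subunits was followed by comparing each immunoproteasome subunit with the constitutive subunit it replaces, in TPM within a library. Psmb8 exceeded Psmb5 by 2.63 and 2.81 times in WT and by 2.11 and 3.69 times in Sirt6 cKO libraries (exact permutation p = 1). For Psmb9 and Psmb6 the ratio was 4.96 and 4.6 in WT and 6.18 and 4.6 in Sirt6 cKO libraries (exact permutation p = 0.667). Psmb10 was below Psmb7 in each library, with ratios of 0.379 and 0.384 in WT and of 0.373 and 0.317 in Sirt6 cKO libraries (exact permutation p = 0.33, 0.777 adjusted). The first of these ratios is uncertain, because 57.1% of the 50-base stretches of Psmb5 occur in another gene, mostly in the predicted gene Gm3375.

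Summed over the 3 subunits of each kind, the ratio of immunoproteasome to constitutive transcripts was 0.915 and 0.911 in WT and 0.797 and 0.803 in Sirt6 cKO libraries. The values within a group were close and the groups do not overlap, so that the ratio in Sirt6 cKO libraries was 0.876 times that in WT. The exact two-sided permutation test gave p = 0.33, which is the smallest it can give, and 0.777 after adjustment over 7 ratios. The single pairs did not move together, with log2 differences of 0.04 for Psmb8 to Psmb5, 0.16 for Psmb9 to Psmb6 and -0.15 for Psmb10 to Psmb7. Most of the constitutive sum was Psmb7, at 417 and 436 TPM in WT and 496 and 435 TPM in Sirt6 cKO libraries. The summed ratio thus mainly sets the immunoproteasome subunits against Psmb7 and does not measure the exchange within each pair. The balance of heavy chains, as the sum of H2-K1 and H2-D1, to B2m was 0.758 and 0.805 in WT and 0.756 and 0.995 in Sirt6 cKO libraries (exact permutation p = 1).

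**Figure D3:**
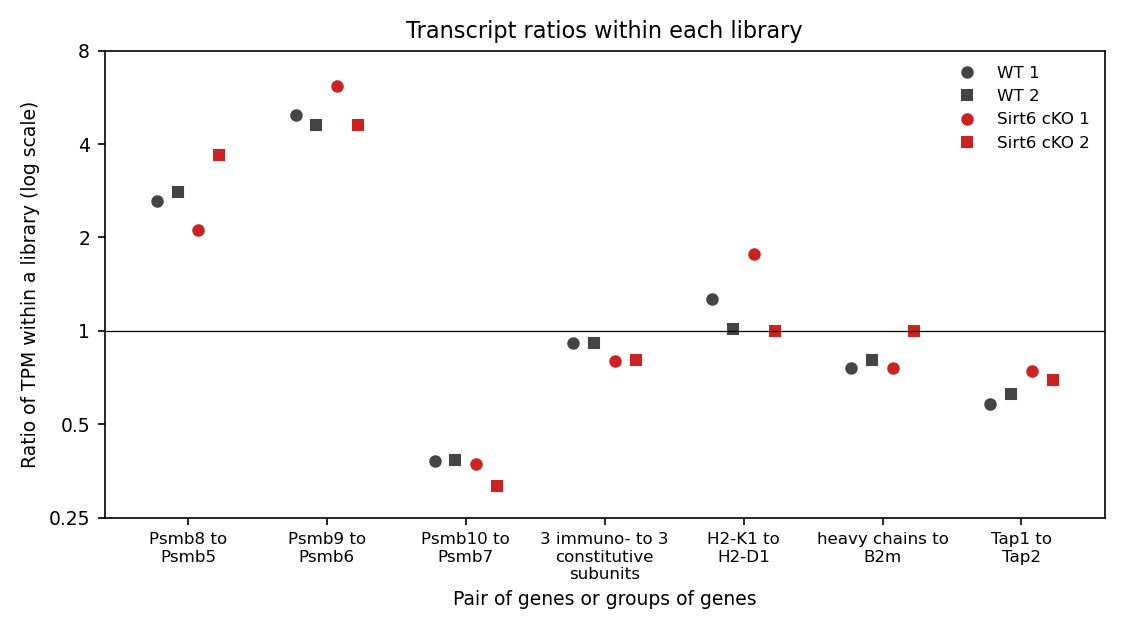
Ratio of TPM between pairs or groups of genes within each library, on a log scale, with circles and squares for replicates 1 and 2, WT in grey and Sirt6 cKO in red. The groups are apart for the summed subunits (0.915 and 0.911 against 0.797 and 0.803), for Psmb10 to Psmb7 and for Tap1 to Tap2, and overlap or touch for the other ratios.

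The 10 genes did not share 1 pattern over the libraries. Relative to a gene's own mean on the log2 CPM scale, H2-D1 was at -0.17, 0.25, -0.38 and 0.30 in the WT and then the Sirt6 cKO libraries, in the order of their numbers, while Psmb10 was at -0.01, 0.03, 0.21 and -0.22. Their mean profile was nearly flat, at -0.10, 0.07, -0.02 and 0.06. Of 10399 other genes with at least 10 CPM on average, the closest to that mean were AA467197, Atp6v1d, Rps6kb2, Hcfc1r1 and Rabl5, with root mean square differences between 0.006 and 0.017 over 4 libraries. Because 71 genes lay within 0.05, this likeness is that of many genes of flat profile.

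Around the classical genes stand the nonclassical class I and class I-like genes, of which 21 of 21 were tested. At the unadjusted threshold 3 were higher under the Sirt6 cKO label (H2-M2, H2-Q6 and H2-Q4) and 1 was lower (Fcgrt), where 5.27% and 3.32% of all genes were, 0 passed after adjustment, and the median log2 fold change was 0.21 against 0.00 over all genes. H2-M2 had 517 and 478 CPM in WT and 876 and 815 CPM in Sirt6 cKO libraries. Its log2 fold change of 0.77 (SE 0.15) had an adjusted p = 0.54 in the edgeR quasi-likelihood test with Benjamini-Hochberg adjustment and 0.0178 in DESeq2. H2-Q6 had 168 and 135 CPM against 380 and 246 CPM, with a log2 fold change of 1.05 (SE 0.27, adjusted p = 0.54 by edgeR and 0.0362 by DESeq2). H2-Q4 had 7.56 and 9.66 CPM against 33.6 and 13.3 CPM. Its estimate of 1.44 (SE 0.51) rests on Sirt6 cKO 1, being 0.62 and no longer called without it, and the call was also lost without WT 1 (1.25) or WT 2 (1.63). In the H2-Q genes 32% of the 50-base stretches of H2-Q6 and 24.3% of those of H2-Q4 are found in other genes, so their counts may draw on the same reads.

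Fcgrt, the neonatal Fc receptor that pairs with B2m and carries IgG and albumin, had 112 and 120 CPM in WT and 37.5 and 51.4 CPM in Sirt6 cKO libraries. It was lower in both, with a log2 fold change of -1.38 (SE 0.24) and an adjusted p = 0.54 in the edgeR quasi-likelihood test and 2.34e-04 in DESeq2. Fcgrt is also made by macrophages, and Lyz2, C1qa, C1qb and Emr1 were lower in the same libraries, while Mertk, Cx3cr1 and Itgam overlapped between the groups. The part of those cells in the value of Fcgrt was not tested. H2-T23, which encodes Qa-1, had 299 and 213 CPM in WT and 500 and 264 CPM in Sirt6 cKO libraries, and its log2 fold change of 0.58 (SE 0.35) did not pass. H2-M3, which presents formylated peptides, had a log2 fold change of 0.14 (SE 0.20).

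**Figure D4:**
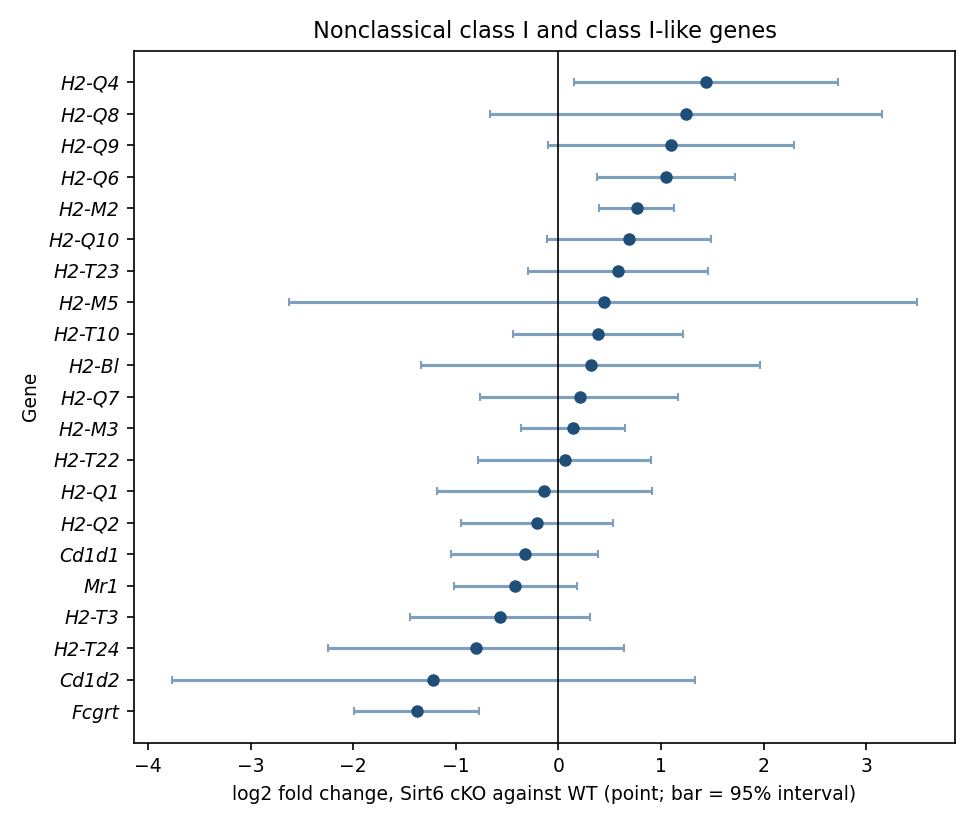
Log2 fold change of Sirt6 cKO against WT for 21 nonclassical class I and class I-like genes, ordered by size, with points for the edgeR estimate and bars for its 95% interval. The intervals of H2-Q4, H2-Q6 and H2-M2 lie above 0 and that of Fcgrt below 0.

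Among 14 further genes of peptide loading and trimming, 1 was higher and 0 were lower at the unadjusted threshold (5.27% and 3.32% of all genes), 0 passed after adjustment and the median log2 fold change was 0.13. Calr, the lectin chaperone of the loading complex, had 743 and 666 CPM in WT and 1046 and 862 CPM in Sirt6 cKO libraries. The log2 fold change of 0.44 (SE 0.17) was close to the unadjusted threshold, and this call was lost in 9 of 12 alternative settings, among them DESeq2 (0.42), either other scaling (0.35 and 0.35), limma, and the fits without WT 1 (0.49), WT 2 (0.36) or Sirt6 cKO 1 (0.29). Its partner Canx had 278 and 235 CPM against 729 and 273 CPM, so that 1 library stands high, and it was the gene of the list that DESeq2 called in place of Calr. The disulfide isomerase Pdia3 and the trimming peptidase Erap1 had log2 fold changes of -0.11 (SE 0.18) and 0.14 (SE 0.18). Tapbpl, the tapasin-related editor, had 151 and 135 CPM against 174 and 206 CPM, and its log2 fold change of 0.41 (SE 0.19) did not pass.

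The proteasome activator, assembly factors and catalytic counterparts held 13 genes, of which 0 were called in either direction. By sign 3 were higher and 10 lower, and the median log2 fold change was -0.27. The activator subunits Psme1 and Psme2, which form the PA28 cap and are induced by interferon together with the immunoproteasome, had log2 fold changes of -0.29 (SE 0.27) and -0.28 (SE 0.16). Psme2 had 189 and 191 CPM in WT and 158 and 155 CPM in Sirt6 cKO libraries. Like those of Psmb9 these groups do not overlap, as was so for 41.9% of all genes tested. The constitutive subunits Psmb5, Psmb6 and Psmb7 had log2 fold changes of -0.01 (SE 0.39), -0.35 (SE 0.29) and 0.14 (SE 0.17). Psmb11, the catalytic subunit of the thymoproteasome of cortical epithelium, had 55.9 and 38.9 CPM against 59.9 and 19.7 CPM. The summed level of 9 cortical markers was 1642 and 1631 CPM against 1778 and 1389 CPM, and these markers did not move together. Dll4 (35.2 and 21.3 against 57.3 and 62.5 CPM) and Ly75 (41 and 47.6 against 129 and 66.9 CPM) were higher at the unadjusted threshold. Prss16 (219 and 211 against 206 and 117 CPM) and Ctsl (499 and 490 against 430 and 347 CPM) were lower in both Sirt6 cKO libraries but were not called.

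Of 26 regulators of class I genes, 3 were higher (Relb, Irf2 and Irf8) and 1 was lower (Nfyc) at the unadjusted threshold, against 5.27% and 3.32% of all genes, 0 passed after adjustment, and the median log2 fold change was 0.07. Relb, an NF-κB subunit needed for the thymic medulla, had 51.3 and 57.1 CPM in WT and 90.0 and 93.9 CPM in Sirt6 cKO libraries, with a log2 fold change of 0.76 (SE 0.20, adjusted p = 0.54 in the edgeR quasi-likelihood test). Its call was lost without WT 1 (0.66) or Sirt6 cKO 2 (0.71). That of Irf2 (0.75, SE 0.28) was lost in 7 of 12 settings, among them those without WT 1 (0.54) or Sirt6 cKO 1 (0.50). That of Irf8 (0.40, SE 0.15) was lost in 11 of 12, DESeq2 (0.38) and any library left out included, at values between 0.30 and 0.47. Nfyc, a subunit of the factor that binds the Y box, had 28.3 CPM in WT 1 but 2.51 CPM in WT 2, and 2.45 and 1.54 CPM in the Sirt6 cKO libraries. It therefore rests on 1 library, being -2.95 with all libraries and -0.36 without WT 1, where it was not called, and the call was also lost without Sirt6 cKO 1 (-3.32) or Sirt6 cKO 2 (-2.65). Of its 50-base stretches, 34.3% occur in another gene, Gm9144.

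Other regulators that act on these promoters did not pass in the edgeR test. Irf1, which binds the interferon regulatory factor element, had 518 and 417 CPM in WT and 459 and 483 CPM in Sirt6 cKO libraries, with a log2 fold change of 0.01 (SE 0.17). Rfx5, a subunit of the factor on the X box, had 69.5 and 68.9 CPM against 27.8 and 72.8 CPM, so that Sirt6 cKO 1 stands apart. Ciita, the class II transactivator and relative of Nlrc5, had 66 and 47.1 CPM against 71.4 and 126 CPM, and its log2 fold change of 0.80 (SE 0.35) did not pass.

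Interferon induces both the class I genes and a wider set of genes, and 30 of the latter were tested. At the unadjusted threshold 0 were higher and 4 were lower under the Sirt6 cKO label, beside 5.27% and 3.32% of all genes, and 0 passed after adjustment. By sign 8 were higher and 22 lower, with a median log2 fold change of -0.15. Rtp4 had 81.3 and 73.2 CPM in WT and 39.1 and 40.7 CPM in Sirt6 cKO libraries, with a log2 fold change of -0.95 (SE 0.22, adjusted p = 0.54 by the edgeR quasi-likelihood test and 0.0129 by DESeq2). Ifit3 had 63.7 and 49.2 CPM against 29.2 and 27.6 CPM, with a log2 fold change of -0.99 (SE 0.26, adjusted p = 0.54 by edgeR and 0.0368 by DESeq2). For Ifit3, 51.2% of the 50-base stretches also occur in Ifit3b, so its count may hold reads of both. Both Rtp4 and Ifit3 were lower in each Sirt6 cKO library than in each WT library. Of the 10 class I genes Psmb9 alone had this order, and it did not pass the test. Groups that do not overlap, in either direction, were found for 41.9% of all genes tested. The calls of Xaf1 (-0.83, SE 0.29) and Ifit2 (-0.76, SE 0.29), the latter named after its values had been seen, were less stable. Xaf1 was lost with any library left out, at values between -0.68 and -1.03, and Ifit2 in 6 of 12 settings, including those without WT 1 (-0.69), WT 2 (-0.84) or Sirt6 cKO 1 (-0.47). The macrophage genes Lyz2, C1qa, C1qb and Emr1 were lower in the same libraries, while Mertk, Cx3cr1 and Itgam overlapped between the groups. The part of macrophages in the interferon-stimulated genes was not tested.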

How the data were processed

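RNA-seq was analysed for mTECs in 4 libraries, 2 per group. Per the submitters' notes and the study's methods, the authors used Trim Galore for trimming, HISAT2 2.1.0 for alignment to mm10 and StringTie 1.3.3 for quantification, and they deposited counts that were whole numbers and not normalised. The other deposited files hold TPM values by the authors, with an extra total line that was left out. The annotation, the strand setting and the handling of reads with several matches were not given in the sources used here.

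Counts were tested with edgeR 4.0.16 in R 4.3.3 (TMM, filterByExpr with a minimum count of 10 and a total of 15, glmQLFit and glmQLFTest, BCV 0.557). Adjustment over all genes followed Benjamini and Hochberg, with a threshold of 0.05. CPM values use the TMM factors. A 50-base stretch was called shared where it matched another GENCODE transcript exactly. Ratios were tested on log2 TPM by exact permutation, which cannot go below p = 0.33. DESeq2 1.42.0 and limma 3.58.1 were alternatives. The scripts were tested on simulated data.

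All 10 members and, from each list, up to 3 genes per direction with the smallest p were named, besides fixed genes of the pathway, 1 of which is not reported here. The members and the lists were chosen with earlier results of these data known. Libraries with the same number were not treated as pairs in the main test. The correlation of their deviations was -0.054, which with 2 libraries per group cannot show whether they were paired. No column was left unmatched.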

Additional observations from a re-analysis of the deposited data

How the results depend on the processing

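In 12 alternative settings, which are another tool, filter, scaling, pseudocount, a replicate block or a library left out, 0 of the 10 genes reached the unadjusted threshold. B2m (-0.19 to -0.01), H2-K1 (0.06 to 0.20), Tapbp (0.07 to 0.24), Psmb9 (-0.29 to -0.19) and Nlrc5 (0.19 to 0.70) kept their sign in log2 fold change. Psmb10 changed sign with DESeq2 (-0.01), a TPM filter (0.00, just below 0), upper quartile scaling (-0.08), library size alone (-0.09), the replicate block (-0.01) and limma with either pseudocount (-0.02 and -0.02). With a library left out, Psmb10 ranged from -0.23 to 0.19, H2-D1 from -0.46 to 0.25, Tap1 from -0.02 to 0.25, Tap2 from -0.30 to 0.04 and Psmb8 from -0.10 to 0.07. Log2 differences of ratios then ranged from -0.36 to 0.44 for Psmb8 to Psmb5, from -0.05 to 0.37 for Psmb9 to Psmb6, from -0.18 to 0.64 for H2-K1 to H2-D1, from -0.05 to 0.35 for heavy chains to B2m, from -0.27 to -0.03 for Psmb10 to Psmb7 and from 0.20 to 0.30 for Tap1 to Tap2, whereas those of the summed subunits stayed between -0.20 and -0.19.

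Over all genes, 354 passed an adjusted p of 0.05 by DESeq2, 2 with the TPM filter, and 0 with the replicate block, limma or any library left out. At the unadjusted threshold, leaving out a library gave between 735 and 1762 genes (higher 421 to 1100, lower 314 to 827), the lowest without Sirt6 cKO 1. Upper quartile scaling and library size alone moved the median of all genes to -0.09 and the share of higher genes among the calls from 61.4% to 48.4% and 46.2%, and limma gave 48.8% and 47.4%. Loading and trimming genes had 0 calls with the TPM filter, either other scaling or limma, and regulators had 1 with the replicate block and 2 with limma. With a library left out, calls ranged from 3 to 8 for nonclassical genes (8 without Sirt6 cKO 2), from 0 to 2 for loading genes, from 0 to 1 for the proteasome list (1 without either Sirt6 cKO library), from 0 to 4 for regulators (0 without WT 1) and from 2 to 4 for interferon-stimulated genes (2 without Sirt6 cKO 1). H2-M2, H2-Q6, Fcgrt, Rtp4 and Ifit3 kept their call in all 12 settings. The causes were not tested. With 2 libraries per group, differences inside the intervals given could not be detected.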
